A study of Mus musculus with 14 samples.

Results

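The endothelial and leukocyte adhesion genes described here are 10 genes of the vessel wall, chosen by name and found through the accessions of the array probes. They fall into 3 kinds: Pecam1, Cdh5, Kdr and Vwf, which mark endothelial cells at rest; Vegfa, a growth factor that acts on them; and Selp, Sele, Icam1, Vcam1 and Madcam1, the adhesion molecules that capture leukocytes. The array holds 17 probes for these 10 genes, out of 41174 non-control probes and 19096 named genes. For 9 of the 10 genes at least 1 probe was bright enough to be tested, and Sele was not.

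Endothelial cells line blood vessels and carry junction proteins such as PECAM-1 and VE-cadherin at all times. When inflammatory cytokines reach them, they display selectins, on which leukocytes roll, and then ICAM-1 and VCAM-1, which bind leukocyte integrins and bring the cells to a stop. MAdCAM-1 is the address of gut venules, bound by the integrin that homes lymphocytes to the intestine. In colitis this machinery controls how many leukocytes enter the mucosa.

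Colons of female C57BL/6 mice, 4 to 6 months of age, gave 14 RNA samples, which were hybridised to 1-colour Agilent arrays, 1 sample per array. In every mouse the gene of the glucocorticoid receptor (GR), Nr3c1, was floxed. Flox mice served as controls, and GR iKO mice also carried Villin-cre, which is active in the intestinal epithelium and not in the endothelium, so the vessel wall was not the target of the deletion. Mice of each genotype drank regular water (n = 4 for Flox and n = 4 for GR iKO) or 2.5% dextran sulfate sodium (DSS), a chemical used to provoke colitis, for 7 days (n = 3 for Flox and n = 3 for GR iKO). The comparisons address how the colon responds to DSS in each genotype and whether the loss of epithelial GR alters that response.

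A level below is the log2 signal of a probe minus the 75th percentile of its array, so 0 is the signal of a bright gene, and a change is the difference of 2 such levels. Each gene is represented by its brightest probe, adjusted p values are those of limma over all probes of a comparison, and a change was called at an adjusted p under 0.05. The 75th percentile ranged from 280 to 1051 intensity units and was lowest on Flox DSS replicate 4, and 62.6% to 71.2% of probes were well above background. Nr3c1 signal in GR iKO colons was 57.2% of that in Flox colons on water (exact permutation p 0.0286, n = 4 per group) and 55.4% on DSS (exact p 0.1, n = 3 per group), each the smallest p that the design allows. One array, GR iKO DSS replicate 3, stood high for all 4 endothelial genes. The DSS changes of these genes and several list counts are also given without it. Correlations were not computed without it. All directions are relative to the signal of the same array. When arrays were scaled to their spike-in transcripts instead, the median change of all probes with DSS moved from −0.12 to −2.42 in Flox and from −0.07 to −0.96 in GR iKO, and the members whose direction turned are named beside their results.

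With DSS, 3 of the adhesion molecules rose in both genotypes. Selp was 11.9-fold higher in Flox and 12.8-fold higher in GR iKO, Icam1 3.71-fold and 6.6-fold, and Vcam1 3.15-fold and 5.28-fold. Of the endothelial genes, Cdh5 rose in both genotypes, by 2.72-fold in Flox and 2.86-fold in GR iKO, whereas Pecam1 and Kdr were not called in either. In Flox, 6 of the 9 tested genes were called, 5 higher and 1 lower, when 50.3% of all 15540 genes were called, 24.1% higher and 26.2% lower. In GR iKO, 4 of 9 were called, all higher, when 42.8% of all genes were called, 20.2% higher and 22.6% lower. Of all called probes in Flox, 43.8% were higher, a share that normexp background correction moved to 63.1%. The share of members called, higher or lower, was thus above that of all genes in Flox and near it in GR iKO. A larger share of the members than of all genes was called higher. These are counts over 9 genes chosen with earlier results of these data known, and not tests. By p value Selp ranked 31st of 29523 probes in Flox and 29th in GR iKO. Under spike-in scaling 7 of the 9 were called in Flox, 1 higher and 6 lower. Selp still rose there (1.28, adjusted p 0.0226), while the Flox changes of Cdh5 (−0.86), Vwf (−1.23), Icam1 (−0.41), Vcam1 (−0.65), Pecam1 (−2.05), Kdr (−2.15) and Madcam1 (−2.10) turned negative, as did the GR iKO values of Pecam1 (−0.47), Kdr (−0.77), Vwf (−0.53), Vegfa (−0.57) and Madcam1 (−0.14).

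**Figure D1:**
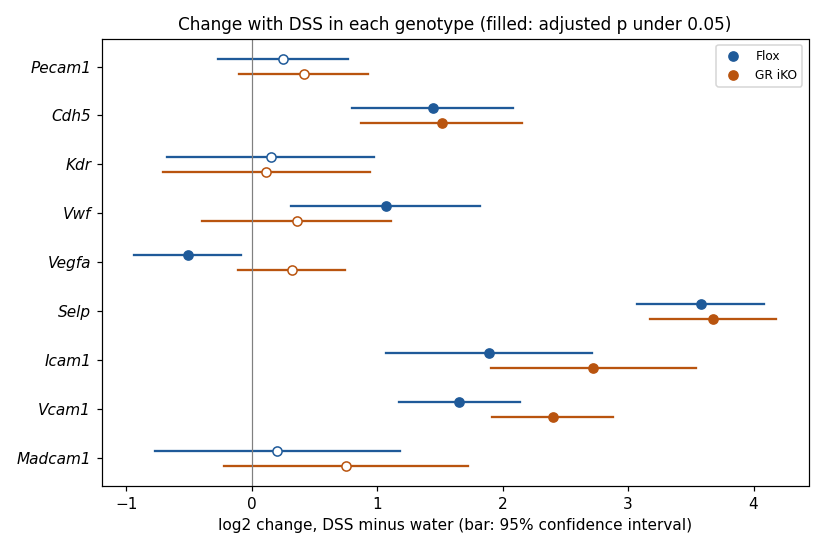
Log2 change of the 9 tested genes from water to DSS in Flox (blue) and GR iKO (orange) colons, with 95% confidence intervals as bars and filled points for adjusted p values under 0.05. Selp lies at 3.58 and 3.68, Icam1 and Vcam1 lie between 1.65 and 2.72, and the intervals of Pecam1, Kdr and Madcam1 include 0 in both genotypes.

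Selp encodes P-selectin, which is stored in endothelial cells and platelets and lets leukocytes roll. Its level was −4.95, −4.96, −4.80 and −4.92 on the 4 Flox water arrays and −0.98, −1.62 and −1.40 on the Flox DSS arrays. In GR iKO it was −4.86, −4.97, −5.08 and −4.52 on water and −1.05, −0.75 and −1.74 on DSS. The water arrays formed a tight band, and every DSS array lay far above it. Separation upward by itself held for 28.1% of all genes in Flox and 23.4% in GR iKO. The log2 change was 3.58 (SE 0.23, adjusted p 2.02e-06) in Flox and 3.68 (SE 0.23, adjusted p 1.56e-06) in GR iKO. Each of the 3 slides with both treatments gave the same direction, from 3.34 to 3.98 in Flox and from 2.78 to 4.33 in GR iKO. A second Selp probe (A_52_P57843) lay within background on all water arrays and well above it on all DSS arrays, so its signal was at least 6.50-fold higher on DSS in Flox and at least 5.04-fold higher in GR iKO. These are lower bounds, taken against the lowest signal counted as well above background on each water array or the probe's own, whichever was higher.

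Sele, which encodes the cytokine-induced E-selectin, was measured by a single probe that was well above background on 1 of 14 arrays, GR iKO DSS replicate 3, at a level of −4.86. The other 13 arrays were not well above background, with values between −8.65 and −7.58 on water and between −6.61 and −6.05 on DSS. No fold is given for Flox, where both groups were below background, and in GR iKO, with 1 of 3 DSS arrays measured, the bound was at least 1.09-fold. Sele therefore entered no test.

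Icam1 and Vcam1 encode the ligands of leukocyte integrins. Icam1 was at −4.01, −3.31, −3.54 and −2.96 on Flox water arrays and at −1.08, −1.25 and −2.36 on Flox DSS arrays. In GR iKO it was at −3.78, −3.49, −3.82 and −3.67 on water and at −0.22, −1.47 and −1.22 on DSS. DSS and water arrays did not overlap in either genotype, as held upward for 28.1% of all genes in Flox and 23.4% in GR iKO. Flox DSS replicate 4 was the lowest DSS array. The change was 1.89 (SE 0.38, adjusted p 0.00145) in Flox and 2.72 (SE 0.38, adjusted p 0.000206) in GR iKO. Vcam1 was at −0.14, 0.10, 0.23 and 0.18 on Flox water arrays and at 2.06, 1.64 and 1.52 on Flox DSS arrays. GR iKO arrays gave −0.15, 0.08, −0.01 and −0.36 on water and 2.80, 2.22 and 1.85 on DSS. Again no DSS array reached down to a water array, and the change was 1.65 (SE 0.22, adjusted p 0.000106) in Flox and 2.40 (SE 0.22, adjusted p 1.65e-05) in GR iKO. A second, dimmer Vcam1 probe (A_52_P520495) was also called, with changes of 0.90 (adjusted p 0.0222) and 1.47 (adjusted p 0.00196). The directions of Icam1 and Vcam1 turned in Flox under spike-in scaling, as given above, and held in GR iKO (1.84 and 1.51).

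Madcam1 did not change beyond the spread of its arrays. It was at −4.58, −3.44, −3.45 and −3.19 on Flox water arrays and at −3.72, −3.56 and −3.11 on Flox DSS arrays. GR iKO levels were −3.71, −3.69, −4.29 and −4.17 on water and −2.90, −2.86 and −3.89 on DSS. The groups overlapped in both genotypes, with a change of 0.20 (95% confidence interval −0.77 to 1.18, adjusted p 0.738) in Flox and 0.75 (−0.23 to 1.72, adjusted p 0.207) in GR iKO. The signs of both turned under spike-in scaling. These intervals leave room for a rise of over 2-fold in either genotype.

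**Figure D2:**
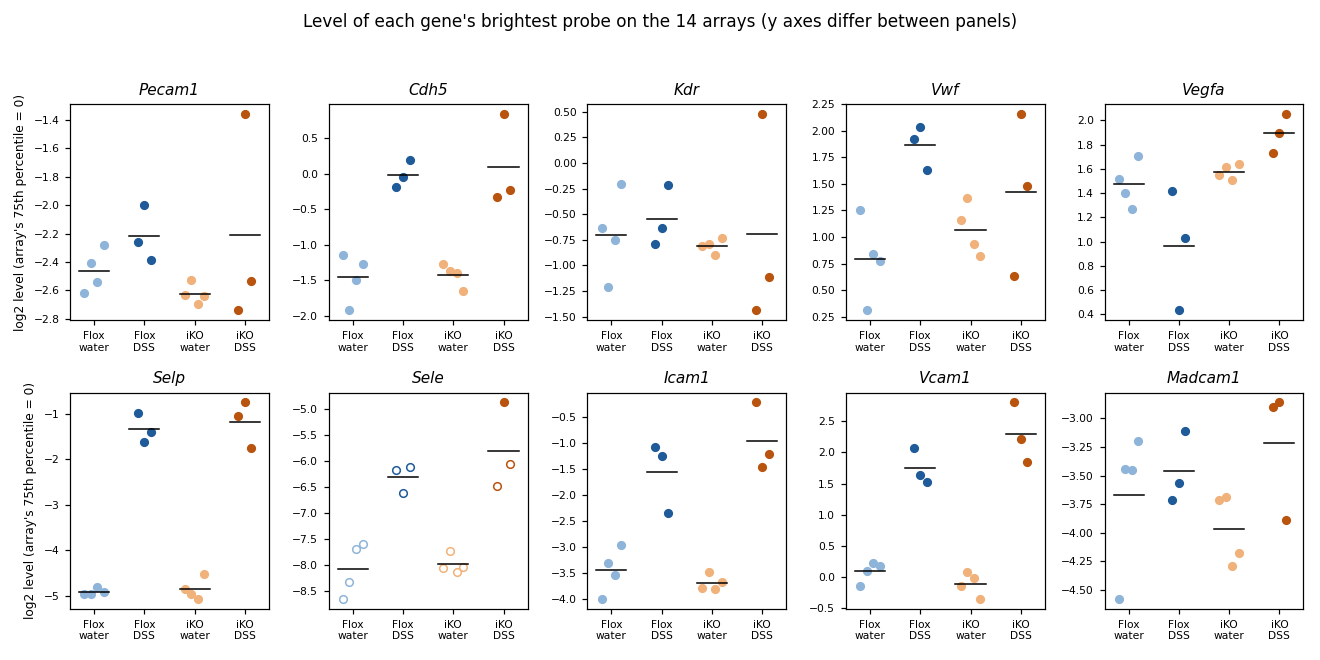
Level of the 10 genes on each of the 14 arrays, as log2 signal minus the 75th percentile of the array, by group; lines are group means and open circles are arrays not well above background. Selp, Icam1 and Vcam1 separate DSS from water in both genotypes, and 1 GR iKO DSS array (replicate 3) stands at the top of the Pecam1, Cdh5, Kdr and Vwf panels.

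Promoter sequence was available for 6 of the 10 genes, as the 250 bases before the RefSeq start site on GRCm38.p6. Those of Selp and Icam1 are shown because both rose, and those of Madcam1 and Kdr because neither was called. They lie at chr1:164115014-164115263 (Selp, forward strand), chr9:21015690-21015939 (Icam1, forward), chr10:79664309-79664558 (Madcam1, forward) and chr5:75978456-75978705 (Kdr, reverse), and are written 5′ to 3′ along the gene. Capitals mark matches to the NF-kB consensus in Madcam1 and Kdr and to the STAT motif TTCNNNGAA in Icam1, searched on both strands.
Selp: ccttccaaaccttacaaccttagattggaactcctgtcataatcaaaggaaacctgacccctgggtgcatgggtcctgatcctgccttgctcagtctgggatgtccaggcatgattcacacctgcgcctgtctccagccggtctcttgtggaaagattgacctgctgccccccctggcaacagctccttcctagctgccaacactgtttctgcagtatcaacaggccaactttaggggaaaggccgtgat
Icam1: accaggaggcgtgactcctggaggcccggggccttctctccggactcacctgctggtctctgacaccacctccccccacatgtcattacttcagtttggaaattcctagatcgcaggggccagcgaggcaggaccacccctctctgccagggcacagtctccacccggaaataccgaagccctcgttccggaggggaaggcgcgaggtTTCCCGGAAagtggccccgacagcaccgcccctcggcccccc
Madcam1: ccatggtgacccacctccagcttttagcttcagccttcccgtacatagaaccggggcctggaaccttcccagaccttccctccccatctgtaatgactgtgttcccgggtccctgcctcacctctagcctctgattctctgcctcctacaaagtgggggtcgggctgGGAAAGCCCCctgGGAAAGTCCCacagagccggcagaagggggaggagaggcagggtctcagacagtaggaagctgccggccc
Kdr: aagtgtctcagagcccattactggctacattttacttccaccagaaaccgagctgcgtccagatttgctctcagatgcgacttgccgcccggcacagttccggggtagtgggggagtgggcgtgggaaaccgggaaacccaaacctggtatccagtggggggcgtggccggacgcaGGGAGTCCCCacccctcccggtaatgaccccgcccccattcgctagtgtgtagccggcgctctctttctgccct
Madcam1 held 2 matches to the NF-kB consensus, which began 83 and 70 bases before the start, where 3.9% of 32851 promoter windows of this length hold at least 1. Kdr held 1 such match, 74 bases before the start, and so did 1 of the 2 Vegfa windows. Icam1 held a STAT motif 42 bases before the start and Sele held 1 at 140 bases, a motif found in 7.02% of windows. The Selp window matched neither motif. No window of these 6 genes held the glucocorticoid receptor motif AGAACA, which 16.1% of all windows hold. The Sp1 motif GGGCGG was in the windows of Kdr, Icam1 and Vegfa (32.7% of all). The TATA motif TATAAA (12.4%) was in that of Sele, and the ETS motif CAGGAA (25.7%) in those of Sele and Vegfa. The hypoxia motif ACGTG (16.6%) was in 1 Vegfa window only, chr17:46025164-46025413. That window lies within the gene, downstream of the other Vegfa window (chr17:46032378-46032627), so this match need not be promoter sequence. The other Vegfa window held no hypoxia motif. A match here is a stretch of letters and not a measured binding site. Only exact matches to 1 form of the NF-kB consensus were searched for, and stretches that differ from it by a letter were not counted. The lack of a match in Selp, Icam1 or Sele therefore does not show that a site is absent.

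Of the genes that mark resting endothelium, Cdh5 and Vwf were called higher in Flox and Cdh5 alone in GR iKO, whereas Pecam1 and Kdr were called in neither. Pecam1, a junctional adhesion protein, was at −2.62, −2.41, −2.54 and −2.28 on Flox water arrays and at −2.26, −2.0 and −2.38 on Flox DSS arrays. In GR iKO it was at −2.63, −2.52, −2.70 and −2.64 on water and at −2.74, −1.35 and −2.53 on DSS. The groups overlapped in both genotypes, and the change was 0.25 (95% confidence interval −0.27 to 0.76, adjusted p 0.414) in Flox and 0.41 (−0.10 to 0.93, adjusted p 0.19) in GR iKO. Kdr encodes VEGF receptor 2. It was at −0.63, −1.21, −0.75 and −0.20 on Flox water arrays and at −0.79, −0.64 and −0.21 on Flox DSS arrays. The GR iKO levels were −0.81, −0.79, −0.90 and −0.73 on water and −1.44, 0.48 and −1.12 on DSS, so that 2 DSS arrays lay below and 1 above all water arrays. The change was 0.15 (−0.68 to 0.98, adjusted p 0.772) in Flox and 0.12 (−0.71 to 0.94, adjusted p 0.834) in GR iKO.

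Cdh5 encodes VE-cadherin, the adhesive core of endothelial junctions. It was at −1.15, −1.92, −1.49 and −1.27 on Flox water arrays and at −0.19, −0.05 and 0.19 on Flox DSS arrays. In GR iKO it was at −1.27, −1.37, −1.40 and −1.65 on water and at −0.33, 0.85 and −0.23 on DSS. No DSS array overlapped the water arrays, as held upward for 28.1% of all genes in Flox and 23.4% in GR iKO. The change was 1.44 (SE 0.30, adjusted p 0.00171) in Flox and 1.52 (SE 0.30, adjusted p 0.00178) in GR iKO. A second Cdh5 probe (A_51_P309056) was also called, at 0.95 (adjusted p 0.0261) and 0.94 (adjusted p 0.0324). Under spike-in scaling the Flox change was negative and called (adjusted p 0.0412), and the GR iKO change of 0.63 was no longer called (adjusted p 0.169). Vwf encodes von Willebrand factor, which tethers platelets and is stored with P-selectin in endothelial granules. It was at 1.26, 0.31, 0.84 and 0.77 on Flox water arrays and at 1.92, 2.04 and 1.63 on Flox DSS arrays, which did not overlap, as held upward for 28.1% of all genes. The GR iKO levels were 1.16, 1.36, 0.93 and 0.83 on water and 0.64, 2.16 and 1.48 on DSS, which did overlap. The change was 1.07 (SE 0.35, adjusted p 0.0229) in Flox and 0.36 (SE 0.35, adjusted p 0.445) in GR iKO. The difference between these changes, −0.71 (adjusted p 0.54), was within error. Under spike-in scaling the sign of this difference turned, to 0.70 (adjusted p 0.299). Without Flox DSS replicate 1 or 2, the Flox change of Vwf lost its call (adjusted p 0.101 and 0.111).

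GR iKO DSS replicate 3 carried much of the GR iKO values of these genes. Without it the change with DSS was −0.01 for Pecam1, −0.47 for Kdr and −0.01 for Vwf, none of them called, and Cdh5 was still called. The mean of the 4 endothelial genes, relative to the 8 water arrays, was 0.62, 0.79 and 0.76 on the Flox DSS arrays and −0.02, 1.48 and 0.35 on the GR iKO DSS arrays. In whole colon, fewer endothelial cells and less RNA per cell cannot be told apart, nor can more of either.

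The 3 adhesion molecules that rose did so by more than the endothelial mean on every DSS array. They were picked for their rise on these same arrays, so this is a description and not a test. It also depends on the reference, since Pecam1 and Kdr, which were not called, lower the mean, while Cdh5 rose by 1.44 and 1.52. Between the Flox arrays of slide 4, Cdh5 changed by 1.46, more than Icam1 (0.60) and Vcam1 (1.35) and less than Selp (3.53). On slide 1 the Flox change of Cdh5 was 0.96, less than those of Icam1 (2.92), Vcam1 (2.21) and Selp (3.98). Relative to the water arrays, Selp exceeded the endothelial mean by 2.83 ± 0.42 (SD, n = 3) in Flox and by 3.10 ± 0.66 (SD, n = 3) in GR iKO. Icam1 exceeded it by 1.29 ± 0.74 (SD, n = 3) and by 2.00 ± 1.38 (SD, n = 3), with the lowest DSS values at 0.46 in Flox and 0.62 in GR iKO, both within the Flox water range, which ended at 0.62. Vcam1 exceeded it by 1.03 ± 0.37 (SD, n = 3) and by 1.69 ± 1.06 (SD, n = 3), with the lowest DSS values at 0.78 and 0.74. For Selp and Vcam1 all DSS arrays lay above all water arrays on this measure. Madcam1, the other adhesion molecule tested, did not on average exceed the endothelial mean on DSS. It was at −0.37 ± 0.28 (SD, n = 3) in Flox and at −0.01 ± 0.81 (SD, n = 3) in GR iKO. These are differences between changes on the same array, so a shift of a whole array, such as spike-in scaling, leaves them the same. Corrections that act by intensity, such as quantile normalization or normexp, could move them and were not applied to this measure.

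**Figure D3:**
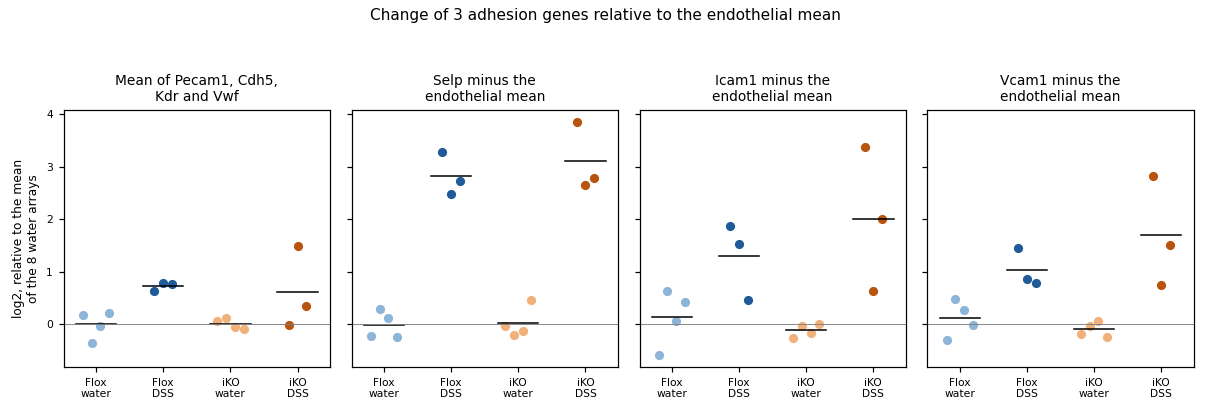
Log2 values on each array relative to the mean of the 8 water arrays, for the mean of the 4 endothelial genes (left) and for Selp, Icam1 and Vcam1 after subtraction of that mean; lines are group means. The lowest DSS array is at 2.47 for Selp, at 0.46 for Icam1 and at 0.74 for Vcam1.

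Vegfa, which encodes the main growth factor of vessel endothelium and is itself made by many other cells, fell in Flox and was not called in GR iKO. It was at 1.52, 1.40, 1.27 and 1.70 on Flox water arrays and at 1.42, 0.43 and 1.03 on Flox DSS arrays. GR iKO arrays were at 1.55, 1.61, 1.5 and 1.64 on water and at 1.73, 1.90 and 2.06 on DSS. The Flox groups overlapped and the GR iKO groups did not, as held upward for 23.4% of all genes. The change was −0.51 (SE 0.20, adjusted p 0.047) in Flox, a call that 10 of 27 alternative settings kept, and 0.32 (SE 0.20, adjusted p 0.221) in GR iKO. Without Flox DSS replicate 2, the array with the lowest level, the Flox change was −0.25 (adjusted p 0.374). The 4 Vegfa probes did not give the same picture. A_52_P638895 fell in Flox by 0.85 (adjusted p 0.00375) and was at −0.03 in GR iKO (adjusted p 0.911). A_52_P249424 was at 0.06 in Flox (adjusted p 0.764) and rose in GR iKO by 0.82 (adjusted p 0.00169). A_52_P229471, the dimmest, was at 0.35 in Flox (adjusted p 0.25) and rose in GR iKO by 0.78 (adjusted p 0.0229). Under spike-in scaling Vegfa changed by −2.81 in Flox and its sign turned in GR iKO (−0.57).

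**Figure D4:**
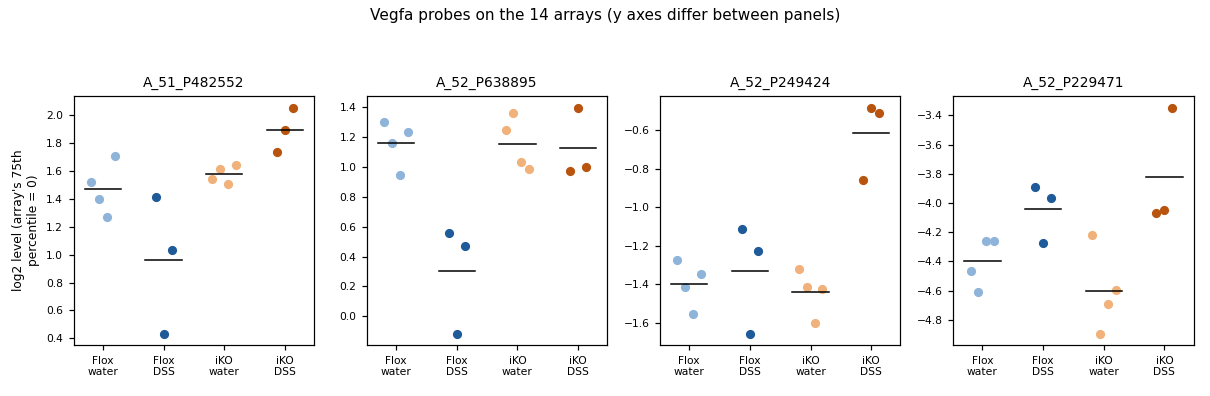
Level of the 4 Vegfa probes on each of the 14 arrays, as log2 signal minus the 75th percentile of the array, by group, with group means as lines. On all 4 probes the GR iKO DSS mean lies above the Flox DSS mean, by 0.22 to 0.94.

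Between genotypes, 0 of the 9 tested genes were called on water, on DSS or for the difference of the DSS responses. On water, 0 of them had an unadjusted p under 0.05 either, and 0.0257% of all genes were called. The largest difference on water was that of Madcam1, −0.30 (95% confidence interval −0.89 to 0.28). On DSS, 1 member had an unadjusted p under 0.05, and 0.0193% of all genes were called by limma, with 5220 of 29523 probes at an unadjusted p under 0.05. That member was Vegfa, higher in GR iKO by 0.94 (95% confidence interval 0.39 to 1.48, adjusted p 0.102). With 1 shared spread for all arrays in place of separate weights it was called (adjusted p 0.0159), as were 3872 probes, but DSS arrays varied more than water arrays for 82.8% of probes. On the 2 slides with DSS samples of both genotypes, Vegfa was higher in GR iKO by 0.48 and 1.02. Icam1 differed on DSS by 0.60 (−0.45 to 1.64) and Vcam1 by 0.55 (−0.07 to 1.16), with overlapping arrays. On its second probe Vcam1 differed by 0.29 (−0.51 to 1.10). Selp differed by 0.15 (−0.49 to 0.80), an interval whose upper end is a difference of less than 2-fold. Its second probe differed by −0.23 (−1.69 to 1.23), which leaves room for more than 2-fold in either direction.

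The difference of the DSS responses, GR iKO minus Flox, was 0.83 (95% confidence interval −0.33 to 1.99, adjusted p 0.503) for Icam1, 0.75 (0.06 to 1.43, adjusted p 0.297) for Vcam1, 0.10 (−0.61 to 0.81, adjusted p 0.926) for Selp and 0.83 (0.23 to 1.44, adjusted p 0.207) for Vegfa. On the second Vcam1 probe it was 0.57 (−0.33 to 1.46, adjusted p 0.565), an interval that includes 0. In this test 2 of the 9 members, Vegfa and Vcam1, had an unadjusted p under 0.05, and limma called 0 of all probes while 4387 had an unadjusted p under 0.05. These counts over all probes depended on the weights and on single arrays. With array quality weights 2145 probes were called for the difference of responses and 3571, against 4, between genotypes on DSS, and the latter count was 810 without Flox DSS replicate 4 and 758 without GR iKO DSS replicate 3. In none of these fits was a member called. Under spike-in scaling 3 members were called, Cdh5, Vegfa and Vcam1, but with it the median over all probes was itself 1.43.

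The genes around the members were described by 7 lists, whose counts stand against 24.1% of all genes called higher and 26.2% lower in Flox, and 20.2% and 22.6% in GR iKO. Among 23 other endothelial identity genes, 12 rose and 1 fell with DSS in both genotypes, with a median change of 0.70 in Flox and 0.61 in GR iKO, beside −0.07 and −0.05 over all genes. Ecscr, an endothelial surface receptor, changed by 1.84 and 1.90, Nos3, the endothelial nitric oxide synthase, by 1.63 and 1.49, and Eng, a TGF-β co-receptor, by 1.61 and 1.42. Clec14a, an endothelial lectin, fell by 1.76 in Flox and by 1.93 in GR iKO. Without GR iKO DSS replicate 3, 5 of the 23 rose and 3 fell in GR iKO, with a median of 0.33. Under spike-in scaling 0 rose and 20 fell in Flox, and 0 rose and 3 fell in GR iKO.

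Among 17 other adhesion and transmigration genes of the vessel wall, 9 rose and 3 fell in Flox, and 7 rose and 0 fell in GR iKO. Under spike-in scaling these counts were 0 and 13 in Flox and 0 and 1 in GR iKO. With GR iKO DSS replicate 3 left out, 5 rose and 0 fell in GR iKO. Ackr1, a chemokine carrier of venular endothelium, rose by 2.19 and 2.13, and Jam2, a junctional adhesion molecule, by 1.90 and 1.34. Mcam (1.85) and Jam3 (1.52) were also among the largest in Flox, and Pvr (1.5) and Cd47 (1.36) in GR iKO. Of 17 genes for leukocyte counter-receptors and selectin ligands, 4 rose and 2 fell in Flox, whereas 14 rose and 0 fell in GR iKO. Leaving out GR iKO DSS replicate 3 gave 11 that rose and 0 that fell in GR iKO. The Flox share of risers was near the 24.1% of all genes, and under spike-in scaling 1 rose and 13 fell in Flox and 4 rose and 2 fell in GR iKO. Itgam, the integrin chain that binds ICAM-1, rose by 2.07 in Flox and 2.60 in GR iKO, and Ccr7, a chemokine receptor, rose by 2.33 in GR iKO. Itgb1 rose by 1.61 and Gcnt1, an enzyme of selectin ligand synthesis, fell by 1.07 in Flox. Cxcr2, a chemokine receptor of neutrophils, lay within background on water and was at least 8.15-fold higher on DSS in Flox and at least 17.7-fold higher in GR iKO. Between genotypes on DSS, 0 of the 17 were called, with 6 at an unadjusted p under 0.05.

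Of 10 cytokines known to induce adhesion molecules, 6 rose and 2 fell in Flox and 6 rose and 0 fell in GR iKO. Il1b rose by 5.45 and 7.71, and Tnf rose by 2.77 in Flox. Il6 was not well above background on water and was at least 56.5-fold higher on DSS in Flox and at least 130-fold higher in GR iKO. Ifng was at least 39.1-fold higher in Flox, and Il1a at least 22.6-fold higher in GR iKO. On GR iKO water, 1 of 4 arrays measured Ifng, and the rise with DSS was 7.68. Of 17 VEGF and angiopoietin family genes, 8 rose and 2 fell in Flox and 7 rose and 1 fell in GR iKO, or 4 and 3 without GR iKO DSS replicate 3. Angptl4 rose by 4.20 and 4.85, Vegfd, a lymphatic growth factor, by 2.62 and 1.53, and Pgf, a VEGF homologue, by 1.71 and 1.36. Flt4 rose by 1.17 in Flox. Angpt1 lay within background on GR iKO water, was measured on 2 of 3 GR iKO DSS arrays and was at least 1.65-fold higher on DSS.

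Of 9 coagulation and platelet-binding genes, 6 rose and 1 fell in Flox and 7 rose and 1 fell in GR iKO. Edn1, a vasoconstrictor peptide, fell by 2.82 in Flox. Ptgis (2.01) and Tfpi (1.44) were among the largest in Flox, and Plat (2.31), Procr (1.65) and Entpd1 (1.65) in GR iKO. Of 11 hypoxia-induced genes, a group to which Vegfa itself is known to belong, 3 rose in Flox and 7 in GR iKO, and 0 fell. The Flox share was near the 24.1% of all genes, and under spike-in scaling 0 rose and 11 fell in Flox and 1 rose and 1 fell in GR iKO. Ndrg1 rose by 0.93 in Flox, and Hk2 by 1.90, Adm by 1.79, Egln3 by 1.28 and Slc2a1 by 1.15 in GR iKO. Some lists share genes, such as Flt1, Tek and Tie1. The numbers of risers in the 2 genotypes are counts of calls, and their difference was not tested. Under spike-in scaling 3 of the cytokines rose and 4 fell in Flox, as did 1 and 13 of the VEGF and angiopoietin genes and 0 and 5 of the coagulation genes, and in GR iKO the counts were 6 and 0, 1 and 4, and 1 and 1.

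Markers of other cells were counted in the same way, against 24.1% of all genes called higher and 26.2% lower in Flox and 20.2% and 22.6% in GR iKO. Pericyte and mural cell markers rose for 7 of 8 genes in Flox and for 6 of 8 in GR iKO (3 of 8 without GR iKO DSS replicate 3), and fibroblast markers for 8 and 7 of 8. Smooth muscle markers rose for 7 of 8 genes in Flox, with array means from 1.02 to 1.59 above the water arrays, and for 0 of 8 in GR iKO (−0.67 to 0.54). On DSS, 0 of the 8 smooth muscle genes were called between genotypes by limma, although all 8 had an unadjusted p under 0.05. With GR iKO DSS replicate 3 left out, 2 of the 8 were called lower in GR iKO than in Flox. Lymphatic endothelial markers rose for 4 and 3 of 6 genes, and platelet markers, of interest since platelets also hold P-selectin, for 5 of 7 in both genotypes, with 1 of 7 falling. Leaving out GR iKO DSS replicate 3 gave 4 of 7 platelet markers that rose in GR iKO. Neutrophil markers rose for 6 of 7 genes in Flox and all 7 in GR iKO, with array means of 4.48 to 5.49 and 6.21 to 8.50. Macrophage markers rose for 4 and 6 of 8 genes. Under spike-in scaling only the neutrophil markers among these lists still had risers in Flox (4 of 7), and the counts that fell there were 3 of 8 pericyte, 5 of 8 fibroblast, 5 of 8 smooth muscle, 2 of 6 lymphatic, 4 of 7 platelet and 4 of 8 macrophage genes. In GR iKO, 7 neutrophil, 2 pericyte and 1 macrophage genes rose under that scaling, and 1 pericyte, 1 lymphatic and 1 platelet gene fell.

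Follicular B cell and follicular dendritic cell markers, which report on lymphoid tissue in the sample, fell for 7 of 8 genes in Flox and for 0 of 8 in GR iKO (1 of 8 without GR iKO DSS replicate 3). Their array means were −3.71, −2.96 and −0.25 on the Flox DSS arrays and 0.73, 0.92 and −3.07 on the GR iKO DSS arrays, against −0.53 to 0.60 on water. GR iKO DSS replicate 4, at −3.07, was also the GR iKO DSS array with the lowest Madcam1. Epithelial markers fell for 3 of 8 genes in Flox and rose for 1 of 8 in GR iKO, and T cell markers fell for 1 of 7 in Flox. Under spike-in scaling 8 of 8 epithelial, 7 of 7 T cell and 8 of 8 follicular genes fell in Flox, and 3, 0 and 1 fell in GR iKO, with 0 rising. On GR iKO DSS replicate 3 the other endothelial identity genes were at 1.18 and the pericyte genes at 1.56, the highest of the GR iKO DSS arrays. The part of these shifts in the changes of the members was not tested.

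**Figure D5:**
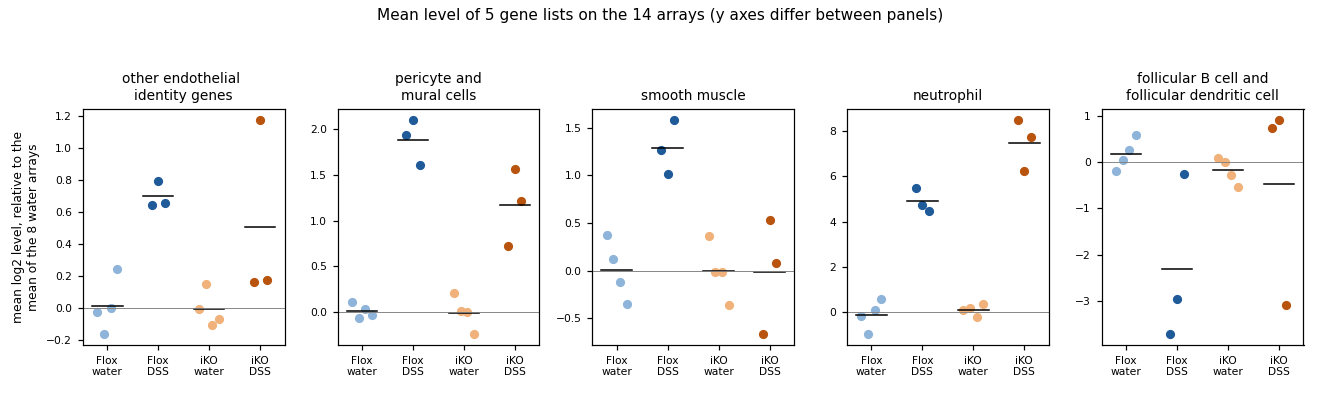
Mean log2 level of 5 gene lists on each of the 14 arrays, relative to the mean of the 8 water arrays, by group, with group means as lines. Endothelial genes on GR iKO DSS replicate 3 stand at 1.18 against 0.16 and 0.17 on the other GR iKO DSS arrays, and the follicular genes lie between −3.71 and −2.96 on 3 of the 6 DSS arrays.

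The genes whose levels followed each member most closely over the 14 arrays are given as a description, since all points share the DSS contrast. For Selp they were Sbno2 (Pearson r 0.993), Osmr (0.991) and Itih3 (0.988). For Icam1 they were Ms4a6c (0.984) and Ms4a4c (0.983), and for Vcam1 Cyp7b1 (0.990), Abl2 (0.988) and Dse (0.987). Cdh5 was closest to Dio3 (0.980), Itgb3 (0.975) and Fry (0.969), and Vwf to Tnrc6c (0.961), Pkd1 (0.923) and Zfp385b (0.918). Kdr was closest to Emcn (0.873), an endothelial sialomucin, Sncaip (0.867) and Gm16523 (0.863), and Pecam1 to Gata2 (0.886), Atxn1l (0.885) and Fgfr2 (0.861). Vegfa followed Cdh17 (0.925), an intestinal epithelial cadherin, Atp11b (0.893) and Lmtk2 (0.876), and Madcam1 followed Limd2 (0.926), Il21r (0.851) and Ppp3cc (0.841). For Selp the value within the 6 DSS arrays after centring each group was lower, from 0.626 to 0.838 for the 3 genes, whereas for Kdr it was 0.921 to 0.984. These 6 arrays include GR iKO DSS replicate 3, the highest array for Kdr (0.48), and the values were not computed without it. The genes were also picked over 14 arrays that include these 6.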

How the data were processed

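Whole colon RNA (500 ng per mouse, per the labels) was labelled with Cy3, hybridised to Agilent arrays and scanned, and the authors extracted spot intensities with Feature Extraction 12.0.0.7. The deposited intensity is linear, background-subtracted and detrended, with small values raised to a surrogate, which shrinks fold changes of dim probes. The deposited value table holds log2 values with the same median on every array; its scale matched the log2 processed intensity (lowest r 0.999), and it served as an alternative.

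Control spots and flagged outliers were left out, spots of a probe were averaged, and the 75th percentile of each array was subtracted on the log2 scale. Probes well above background on at least 3 of 14 arrays were tested (29523 probes, 15540 named genes). Symbols came from RefSeq accessions (28223 of 29245 matched, GRCm38.p6). The array grid is drawn on another build, so no probe positions are given. Group means were fitted with limma 3.58.1 in R 4.3.3, with 1 weight for water and 1 for DSS arrays, two-sided, and Benjamini-Hochberg adjustment ran over all probes of a comparison. The labels number the replicates without naming animals, so p values measure the spread between these samples, and the number of arrays limits the precision. The fit was also run on simulated arrays with independent noise, in which few probes were changed. On the real arrays many probes changed and single arrays deviated, so that run does not test the calls made here.

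Alternatives were other weights, slide or replicate number as a block, normexp (on median signal and background, since mean signals were not used here), quantile and spike-in scaling, the deposited table, other filters, the mean of all probes and leaving out each array. Named genes were all members, up to 4 called, non-overlapping genes per pathway list and comparison, and the 3 genes most like each member, less some that are not reported here. Members and lists were chosen with earlier results of these data known, and list counts without GR iKO DSS replicate 3 or under spike-in scaling were added after seeing the data. The promoter windows were cut to the 250 bases before the start. How the study tested its arrays was not used here.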

Additional observations from a re-analysis of the deposited data

How the results depend on the processing

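Selp was called with DSS in both genotypes under all 27 alternatives, and Icam1 and Vcam1 in GR iKO under all and in Flox under 26, the exception being spike-in scaling. The number of members called was within 1.5 times the value given except in 2 cases: with 1 shared spread 1 member (Vegfa) was called between genotypes on DSS, and under spike-in scaling 3 were for the interaction. The total hides a turn of direction under spike-in scaling in Flox, where Pecam1 (adjusted p 0.000466), Kdr (0.000479), Madcam1 (0.011), Vwf (0.0126), Cdh5 (0.0412) and Vegfa were called lower. The Vegfa fall in Flox was called in 10 of 27 alternatives, and its GR iKO value of 0.47 with the mean of all probes was called (adjusted p 0.0321). Same-numbered arrays did not deviate together throughout (r from −0.23 to 0.31 over 18 pairs, 6 of 14 arrays closest to one of their own number), so the numbers were not taken as a pairing. With the replicate block 14591 probes were called in Flox and 12056 in GR iKO, against 14239 and 11733, 5 against 7 between genotypes on water and 0 against 4 on DSS, and no call of a member changed. Signs turned for 64 of 1206 member values, 57 of them called in neither setting. Under array quality weights the sign turned for Kdr (−0.012) in the Flox response, for Kdr (−0.035) in the GR iKO response, for Selp (−0.062) for genotype on water, for Pecam1 (−0.18) and Selp (−0.12) for genotype on DSS, for Pecam1 (−0.043) and Selp (−0.055) in the interaction. Under the replicate block the sign turned for Cdh5 (−0.021) in the interaction. Under normexp the sign turned for Selp (−0.040) for genotype on water, for Pecam1 (−0.13) and Madcam1 (−0.060) for genotype on DSS. Under quantile normalization the sign turned for Kdr (0.0072) in the interaction. Under spike-in scaling the sign turned for Pecam1 (−2.05), Cdh5 (−0.86), Kdr (−2.15), Vwf (−1.23), Icam1 (−0.41), Vcam1 (−0.65) and Madcam1 (−2.10) in the Flox response, for Pecam1 (−0.47), Kdr (−0.77), Vwf (−0.53), Vegfa (−0.57) and Madcam1 (−0.14) in the GR iKO response, for Cdh5 (−0.14), Vegfa (−0.072) and Selp (−0.12) for genotype on water, for Kdr (1.09) and Vwf (0.80) for genotype on DSS, for Kdr (1.38) and Vwf (0.70) in the interaction. Under the deposited table the sign turned for Kdr (0.0028) in the interaction. Under the mean of all probes the sign turned for Vegfa (−0.035) for genotype on water, for Selp (−0.036) for genotype on DSS, for Selp (−0.064) in the interaction. Over fits that left out 1 array, members whose sign turned at least once ranged as follows: Kdr −0.021 to 0.32 and Madcam1 −0.10 to 0.36 (Flox response); Pecam1 −0.015 to 0.68, Kdr −0.47 to 0.49 and Vwf −0.011 to 0.75 (GR iKO response); Cdh5 −0.12 to 0.14, Kdr −0.28 to 0.057 and Selp −0.059 to 0.13 (genotype on water); Pecam1 −0.42 to 0.27, Cdh5 −0.27 to 0.32, Kdr −0.73 to 0.23 and Selp −0.062 to 0.44 (genotype on DSS); Pecam1 −0.26 to 0.43, Cdh5 −0.30 to 0.29, Kdr −0.62 to 0.34 and Selp −0.11 to 0.38 (interaction). Causes of these shifts were not tested. Groups of 3 or 4 arrays and probes near background, such as that of Sele, limit what could be detected.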
